A study of Mus musculus with 6 samples.

Results

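Mitochondrial respiratory complexes II to V and cytochrome c were examined in the quadriceps of AR97Q mice after running exercise. A gene belonged to the group when a non-control probe of the array mapped to a mouse symbol beginning with Sdh, Uqcr, Cox followed by a digit or Atp5, or to Cyc1 or Cycs. The rule gave 61 genes with 83 probes, among 44931 genes and transcripts with 56605 probes on the array. They were 8 genes of complex II, 9 of complex III, 26 of complex IV, 17 of complex V and Cycs. By role, 47 encode subunits or tissue isoforms of subunits and 14 encode assembly or other accessory factors. The array annotation as matched here gave no probe to Cox5b. It also gave none to the subunits encoded in the mitochondrial genome, so all values below concern nuclear genes.

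The respiratory chain moves electrons from fuel molecules to oxygen in the inner mitochondrial membrane. Complex II (succinate dehydrogenase) takes electrons from succinate, complex III (cytochrome bc1) passes them to cytochrome c, and complex IV (cytochrome c oxidase) hands them to oxygen. Complexes III and IV pump protons, and complex V (ATP synthase) uses the returning protons to make ATP. Fibres that work aerobically hold many mitochondria, and endurance training is known to raise the mitochondrial content of muscle. Several subunits of complex IV exist as a widely expressed isoform and a heart or skeletal muscle isoform encoded by another gene.

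The arrays came from male AR97Q mice aged 9 weeks, 3 from an exercise group and 3 from a sedentary group. AR97Q mice carry a human androgen receptor transgene with an expanded CAG repeat on a C57BL/6J background and model spinal and bulbar muscular atrophy, and both groups carry it. Exercise was forced wheel running at 5 m/min for 60 min on 5 days a week over 4 weeks, begun at 5 weeks of age, and wild-type mice were not analysed here. The comparison therefore asks how the muscle transcripts of exercised AR97Q mice differ from those of unexercised AR97Q mice. The methods give 3 mice per group, as many as the arrays, although the labels only number the replicates.

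All 6 arrays lay on 1 slide, with the 3 exercise arrays and sedentary array 1 on strip 1 and sedentary arrays 2 and 3 on strip 2. The strip was inferred from the position numbers that end the barcode in each scanner file. The 75th percentile of processed signal was 250.5 to 256.9 on the exercise arrays and 310.3 to 383.6 on the sedentary arrays, 54.6% to 59.9% of probes exceeded the scanner software's background limit, and 0 spots were saturated. Values below are log2 signal minus the array's 75th percentile, so 0 is the level of that percentile. A gene is said to have risen or fallen where limma's test, with Benjamini-Hochberg adjustment over 25005 genes and transcripts, gave an adjusted p under 0.05. In muscle RNA, a larger share of a cell type and more transcript per cell cannot be told apart.

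With arrays scaled to their 75th percentile, most transcripts of complexes II to V were higher in the exercise group. Of 61 genes, 59 had a probe well above background on at least 3 arrays and were tested. Among these, 56 were higher and 3 lower, 43 rose and none fell. At an unadjusted p under 0.05, 52 were higher and 1 was lower, while 9249 of the 25005 genes and transcripts had such a p in either direction. Over all genes and transcripts tested, 11.5% rose and 6.12% fell. The median log2 fold change of the members was 0.42, with a range from −0.35 to 0.80, against 0.026 over everything tested. In 54 of the 59 members the lowest exercise array lay above the highest sedentary array, against 25.0% of everything tested. No member reached a log2 fold change of 1 with an adjusted p under 0.05, which 1.72% of everything tested did in the upward direction. The changes were thus small, at most 1.74-fold.

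**Figure D1:**
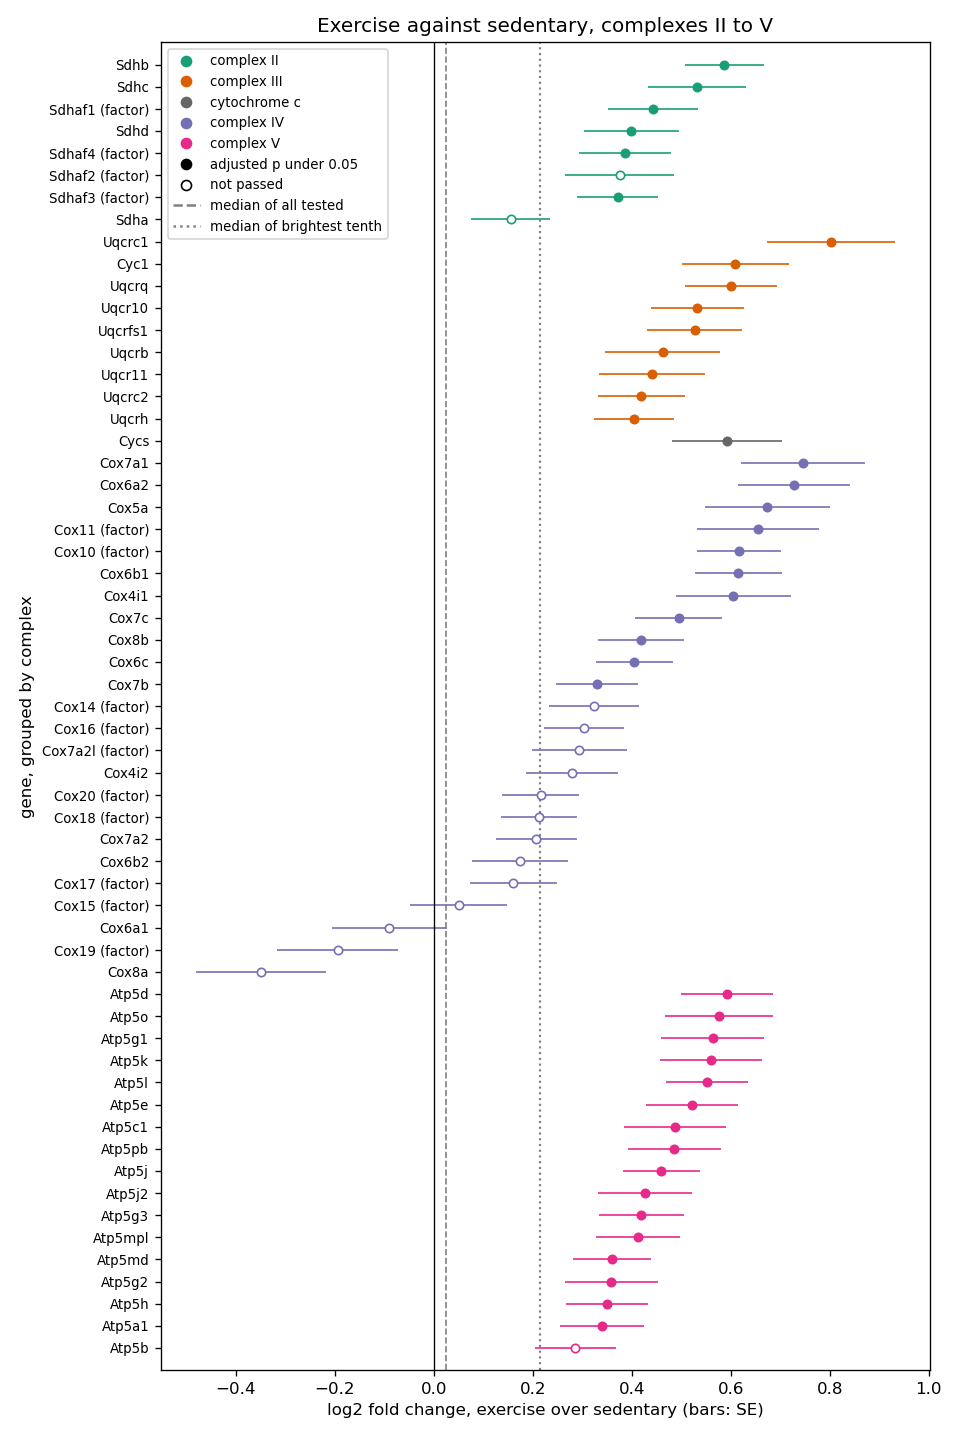
The horizontal axis gives the log2 fold change of exercise over sedentary arrays (3 and 3) with its standard error, and each row is 1 of the 59 tested genes, coloured by complex. Filled circles mark an adjusted p under 0.05, the dashed line is the median of everything tested (0.026) and the dotted line that of the brightest 10% (0.21). Every gene of complexes III and V lies to the right of the dotted line, while complex IV runs from −0.35 to 0.75.

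Brightness moved with the result. These are abundant muscle transcripts, and 47 of the 59 fell in the brightest 10% of everything tested. In that bin 31.4% of genes and transcripts rose, 1.04% fell and the median log2 fold change was 0.21. Counted from the dimmest 10%, the median of bin 1 was 0.055 and those of bins 2 to 4 were −0.064 to −0.068. The 47 members in the brightest bin had a median of 0.46, and 38 of them rose. The other 12 tested members, all dimmer, included 5 that rose. The part of brightness in the result was not tested apart from the scalings that follow.

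**Figure D2:**
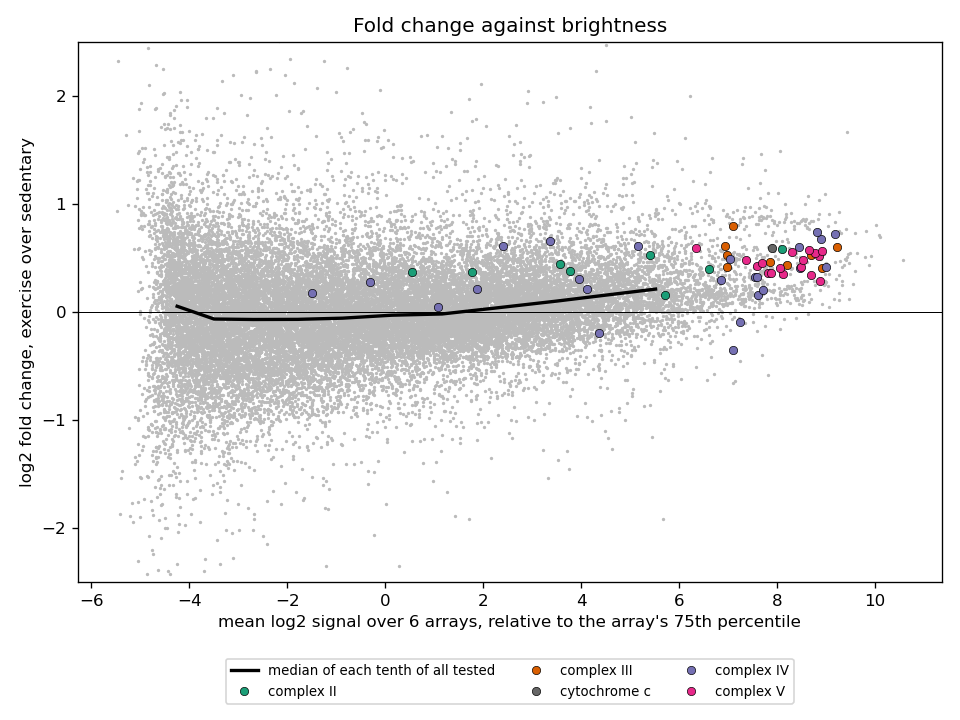
Each grey point is a gene or transcript, with its mean log2 signal over 6 arrays (relative to the 75th percentile) across and its log2 fold change up. The black line joins the medians of 10 bins of brightness with equal numbers, coloured points are the members, and 24 points beyond 2.5 in either direction are not drawn. Most members sit at the bright end and above the line.

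The level of the whole group depended on how arrays were brought to one scale. Scaling by 1 factor per array leaves the distance between the members' median and that of everything tested at 0.39. The median itself was 0.51 with the array median subtracted, when that of everything tested was 0.11. It was 0.26 in the deposited table (everything tested −0.13) and −0.053 with no scaling (everything tested −0.45). Quantile normalization and cyclic loess, which also even out trends with brightness, left members' medians of 0.057 and 0.13 (everything tested −0.019 and −0.024). Under these, 4 and 5 of the 59 members rose, beside 1865 and 1881 of the 25005 genes and transcripts. The members thus rose about as often as everything tested under these scalings. Directions depended on the scaling too. Under quantile normalization 40 members were higher and 19 lower, and under cyclic loess 44 and 15. The counts were 24 and 35 with no scaling and 54 and 5 in the deposited table. Of the 43 that rose, 11, 6 and 19 were lower under quantile normalization, cyclic loess and no scaling. Cox6b1, a small subunit of complex IV, rose under both quantile normalization and cyclic loess. Leaving out any array other than sedentary array 1 left no member past the threshold, and none of the 25005 genes and transcripts rose. In each of these fits 47 to 50 members were higher with an unadjusted p under 0.05. Over everything tested, 6686 to 8146 had such a p in either direction. Without sedentary array 1, 42 members and 3476 of everything tested rose. With the slide strip as a block no member passed and nothing else tested rose. There 37 members were higher with an unadjusted p under 0.05, beside 4827 of everything tested in either direction. The members' median was 0.35.

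**Figure D3:**
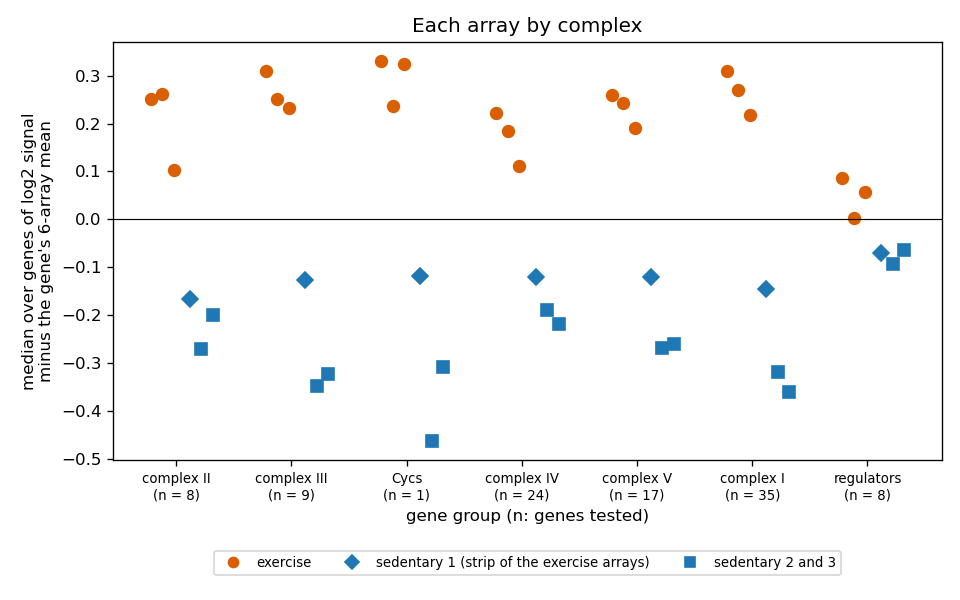
For each gene group the vertical axis gives, per array, the median over its tested genes of log2 signal minus that gene's mean over 6 arrays. Circles are exercise arrays, the diamond is sedentary array 1 (on the strip of the exercise arrays) and squares are sedentary arrays 2 and 3. In every complex the exercise arrays lie above 0 and the sedentary arrays below it, with sedentary array 1 the nearest to the exercise arrays in each.

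Per array, the members' median deviation from their 6-array means was 0.26, 0.24 and 0.15 on the exercise arrays and −0.13, −0.27 and −0.23 on the sedentary arrays. The groups did not overlap. Sedentary array 1, the only sedentary array on the strip of the exercise arrays, lay between the exercise arrays and the other sedentary arrays.

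In complex II, 6 of 8 tested genes rose, with a median log2 fold change of 0.39. Sdhb, the iron-sulfur subunit, had the largest change. Its log2 signal was 8.37, 8.40 and 8.42 on the exercise arrays and 7.89, 7.78 and 7.77 on the sedentary arrays. The groups did not overlap, and Sdhb was 1.50-fold higher (log2 0.59, SE 0.08, adjusted p = 0.0234). Against sedentary array 1 alone, within strip 1, its difference was 0.51. The membrane anchors also rose. Sdhc was at 5.77, 5.71 and 5.55 against 5.25, 5.10 and 5.08, a difference of 0.53 (SE 0.10, adjusted p = 0.0258), and Sdhd differed by 0.40.

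Sdha, the flavoprotein that oxidises succinate, had the smallest difference of the complex. It measured 5.74, 5.80 and 5.82 on the exercise arrays and 5.68, 5.56 and 5.66 on the sedentary arrays. The groups did not overlap, but the difference of 0.16 (SE 0.08) did not pass (adjusted p = 0.215). The difference between the changes of Sdha and Sdhb was not tested. The 4 succinate dehydrogenase assembly factors differed by 0.37 to 0.44. Of these, Sdhaf1, Sdhaf3 and Sdhaf4 rose, and Sdhaf2 had an adjusted p of 0.0634.

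In complex III all 9 tested genes rose, with a median of 0.53. Uqcrc1, a core protein of the matrix side, had the largest fold change of all members. Its values were 7.50, 7.52 and 7.51 on the exercise arrays and 6.97, 6.63 and 6.52 on the sedentary arrays. The exercise arrays agreed closely and the sedentary arrays were spread, with array 1 nearest to the exercise arrays. Uqcrc1 was 1.74-fold higher (log2 0.80, SE 0.13, adjusted p = 0.0236), and 0.54 higher against sedentary array 1 alone.

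Cyc1 and Uqcrfs1 carry electrons, as cytochrome c1 and the Rieske iron-sulfur protein. Cyc1 was at 7.31, 7.24 and 7.20 against 6.82, 6.58 and 6.52, a difference of 0.61 (SE 0.11, adjusted p = 0.0243). Uqcrfs1 was at 7.22, 7.30 and 7.21 against 6.86, 6.63 and 6.66, a difference of 0.53 (SE 0.10, adjusted p = 0.0251). Neither gene overlapped between groups. Uqcrq, a small subunit, varied less among the exercise than among the sedentary arrays. It measured 9.54, 9.52 and 9.49 on the exercise arrays and 9.05, 8.90 and 8.80 on the sedentary arrays, and was 1.52-fold higher (log2 0.60, SE 0.09, adjusted p = 0.0234). The smallest change was that of Uqcrh, the hinge protein, at 0.40 (SE 0.08, adjusted p = 0.0282). The core protein Uqcrc2 and the small subunits Uqcrb, Uqcr10 and Uqcr11 rose by 0.42 to 0.53.

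Cycs encodes cytochrome c, the soluble carrier between complexes III and IV. Its log2 signal was 8.23, 8.14 and 8.23 on the exercise arrays and 7.78, 7.44 and 7.59 on the sedentary arrays. The groups did not overlap, and Cycs was 1.51-fold higher (log2 0.59, SE 0.11, adjusted p = 0.0258).

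Complex IV was the most divided. Of 24 tested genes 11 rose, 10 were higher without passing and 3 were lower without passing, with a median of 0.31. Among 14 subunits and isoforms 9 rose (median 0.41), and among 10 factors 2 rose (median 0.25). Cox7b2 and Cox8c, isoforms known from testis, were not well above background on any array and were not tested.

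The main forms of 6 further subunits all rose. Cox5a, a matrix-side subunit, was at 9.30, 9.21 and 9.17 on the exercise arrays and 8.80, 8.44 and 8.42 on the sedentary arrays, a difference of 0.67 (SE 0.13, adjusted p = 0.0257). Cox6c, Cox7b and Cox7c rose by 0.33 to 0.50. Cox4i1, the main form of a regulatory subunit that binds nucleotides, was at 8.79, 8.84 and 8.64 against 8.34, 8.07 and 8.04, a difference of 0.61 (SE 0.12, adjusted p = 0.0264). Its paralog Cox4i2, best known from lung, differed by 0.28 and did not pass (adjusted p = 0.0846). Cox6b1 rose by 0.62 (SE 0.09, adjusted p = 0.0234), from 4.95, 4.85 and 4.75 on the sedentary arrays to 5.46, 5.51 and 5.42 on the exercise arrays. Its testis paralog Cox6b2 differed by 0.17, with overlapping groups (adjusted p = 0.239).

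For 3 subunits the array holds both a muscle isoform and a widely expressed isoform, and in each the muscle isoform rose and the other did not pass. Cox6a2, the muscle form of subunit VIa, was at 9.55, 9.61 and 9.46 on the exercise arrays and 9.00, 8.77 and 8.66 on the sedentary arrays. It was 1.66-fold higher (log2 0.73, SE 0.11, adjusted p = 0.0234). Cox6a1, its widely expressed partner, was at 7.05, 7.19 and 7.34 against 7.23, 7.43 and 7.20. These groups overlapped, and the difference was −0.09 (SE 0.12, adjusted p = 0.604).

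Cox7a1 and Cox7a2 are the muscle and widely expressed forms of subunit VIIa. Cox7a1 measured 9.24, 9.21 and 9.13 on the exercise arrays and 8.69, 8.35 and 8.29 on the sedentary arrays, and was 1.68-fold higher (log2 0.75, SE 0.13, adjusted p = 0.0239). Cox7a2 measured 7.81, 7.89 and 7.74 against 7.59, 7.61 and 7.62, a difference of 0.21 (SE 0.08, adjusted p = 0.123). The groups of Cox7a2 did not overlap, yet its difference was smaller than that of Cox7a1. Cox7a2l, a related protein that helps join complexes III and IV into supercomplexes, differed by 0.29 and did not pass (adjusted p = 0.0804).

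Cox8b and Cox8a are the muscle and widely expressed forms of subunit VIII. Cox8b was at 9.24, 9.27 and 9.16 on the exercise arrays and 8.89, 8.73 and 8.78 on the sedentary arrays, 1.34-fold higher (log2 0.42, SE 0.09, adjusted p = 0.0301). Cox8a was at 6.90, 6.99 and 6.88 against 7.01, 7.45 and 7.36. The groups did not overlap, with the exercise arrays lower, and the difference of −0.35 (SE 0.13) did not pass (adjusted p = 0.112). Sedentary array 1 stood close to the exercise arrays here, and the difference from it was only −0.09. Cox8a passed as lower with an adjusted p of 0.0439 under quantile normalization, and also under cyclic loess, no scaling, the deposited table, normexp, array weights and without sedentary array 1. Cox8b, in turn, was at −0.077, −0.0045 and −0.054 under quantile normalization, cyclic loess and no scaling, and Cox7a2 at −0.23, −0.14 and −0.27.

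**Figure D4:**
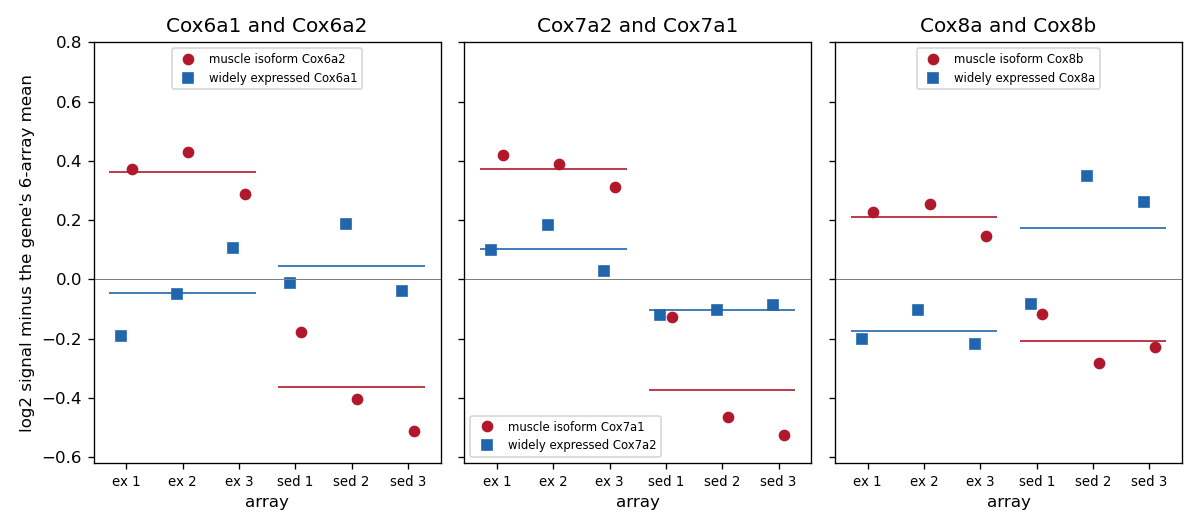
Each panel shows 1 pair of isoforms of complex IV on the 6 arrays, with log2 signal minus the gene's own 6-array mean on the vertical axis. Circles are the muscle isoform, squares the widely expressed isoform and lines the group means. The circles drop from exercise to sedentary arrays in all 3 panels, whereas the squares overlap (Cox6a1), drop less (Cox7a2) or go up (Cox8a).

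Within an array the difference between 2 genes does not change when the array is multiplied by 1 factor, so the pairs were also compared as differences, over the 9 pairs with both genes tested. An exact two-sided permutation test of 3 against 3 arrays cannot give a p below 0.1. Cox6a1 minus Cox6a2 was −2.35 ± 0.20 (SD, n = 3) on exercise and −1.53 ± 0.22 (SD, n = 3) on sedentary arrays, which differ by −0.82 (exact p = 0.1, 0.129 after Benjamini-Hochberg adjustment over the 9 pairs). Cox7a2 minus Cox7a1 shifted by −0.54 and Cox8a minus Cox8b by −0.77, each with the same p. In none of these 3 pairs did the groups overlap. Within strip 1, against sedentary array 1 alone, the shifts were −0.57, −0.28 and −0.42. They ranged over the other scalings from −0.82 to −0.66, −0.56 to −0.48 and −0.80 to −0.61, and with 1 array left out from −0.94 to −0.73, −0.67 to −0.45 and −0.94 to −0.64. The level of one probe says nothing about that of another, so the signs of the means themselves carry no order of abundance.

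The other pairs moved less or less steadily. Cox6b1 minus Cox6b2 was higher on exercise arrays by 0.44 (exact p = 0.1). Cox4i1 minus Cox4i2 was higher by 0.33 (exact p = 0.1), but shifted by −0.12 under quantile normalization and by −0.10 under cyclic loess. Cox7a2 minus Cox7a2l shifted by −0.09 with overlapping groups (exact p = 0.3).

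**Figure D5:**
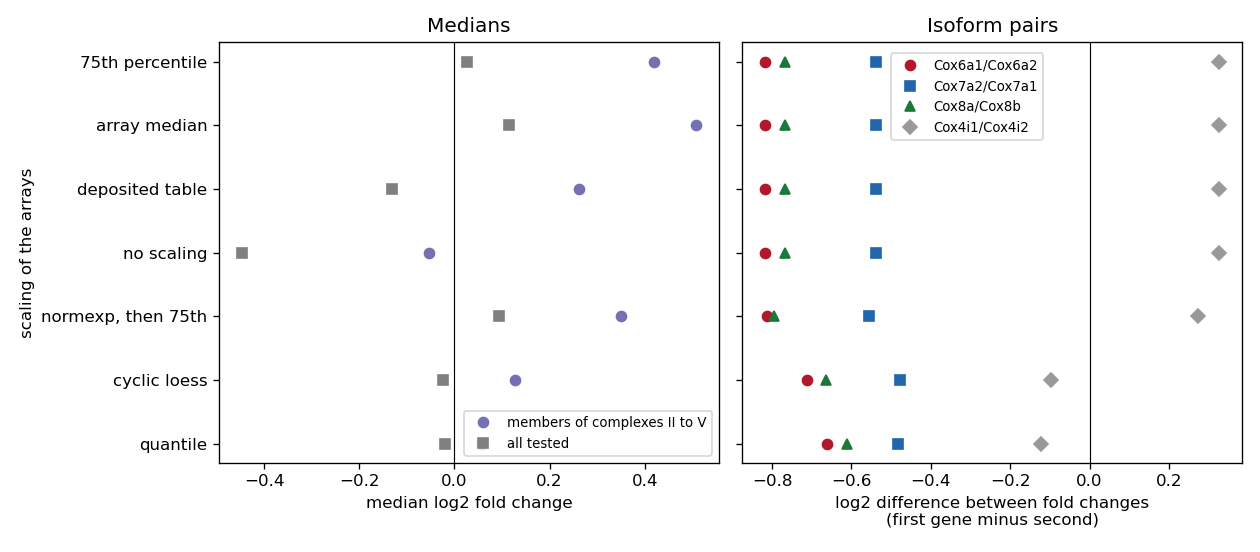
The left panel gives, for 7 ways of scaling the arrays, the median log2 fold change of the members (circles) and of everything tested (squares). The right panel gives the exercise minus sedentary difference of 4 pairs of complex IV genes. The members' median moves from −0.053 to 0.51, while the pairs of muscle and widely expressed isoforms stay below 0 throughout and Cox4i1/Cox4i2 changes sign.

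The assembly and accessory factors of complex IV mostly did not pass. Cox10 and Cox11, which act in making heme A and inserting copper, were the 2 that rose. Cox10 was at 2.75, 2.69 and 2.69 on the exercise arrays and 2.18, 2.01 and 2.09 on the sedentary arrays, a difference of 0.62 (SE 0.08, adjusted p = 0.0234), and Cox11 differed by 0.66 (SE 0.12, adjusted p = 0.0261). Cox15, which acts with Cox10 on heme A, was at 1.17, 1.09 and 1.06 against 1.01, 0.96 and 1.21. Its difference was 0.05 with overlapping groups (adjusted p = 0.734), but a further, dimmer probe of Cox15 gave 0.37. Cox14, Cox16, Cox17, Cox18 and Cox20 differed by 0.16 to 0.32. Cox19, a copper-handling protein, was lower by −0.19 (SE 0.12, adjusted p = 0.294), with sedentary arrays at 4.23, 4.50 and 4.63 and exercise arrays at 4.33, 4.23 and 4.22.

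In complex V, 16 of 17 tested genes rose, with a median of 0.46, and the groups did not overlap in any of the 17. The catalytic head is built from the products of Atp5a1 and Atp5b around a shaft that includes those of Atp5c1 and Atp5d. Atp5d had the largest change of the complex. Its values were 6.66, 6.70 and 6.56 on the exercise arrays and 6.16, 6.02 and 5.97 on the sedentary arrays, a difference of 0.59 (SE 0.09, adjusted p = 0.0234). Atp5c1 rose by 0.49 (SE 0.10, adjusted p = 0.0311) and Atp5e, another shaft subunit, by 0.52. Atp5o, which links the head to the stalk, was at 8.97, 8.99 and 8.87 against 8.54, 8.33 and 8.22, a difference of 0.58 (SE 0.11, adjusted p = 0.0261).

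The 2 large subunits of the head had the smallest changes of the complex on their brightest probes. However, a further probe of Atp5a1 gave 0.45, above several other members, and the further probes of Atp5b gave 0.23 and 0.37. Atp5a1 was at 8.91, 8.78 and 8.88 on the exercise arrays and 8.59, 8.45 and 8.51 on the sedentary arrays, a difference of 0.34 (SE 0.09, adjusted p = 0.0432). Atp5b, which carries the catalytic sites, was at 9.08, 9.02 and 8.96 against 8.78, 8.67 and 8.75, and its difference of 0.29 (SE 0.08) did not pass (adjusted p = 0.0599). Sdha and Atp5b, the catalytic subunits of complexes II and V, thus had the smallest differences of their complexes on the probes used, which is a description of 2 genes.

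Atp5g1, Atp5g2 and Atp5g3 encode the same mature ring protein, subunit c, with different import sequences. All 3 rose, by 0.56, 0.36 and 0.42. Atp5g1 was at 9.24, 9.22 and 9.12 on the exercise arrays and 8.79, 8.59 and 8.51 on the sedentary arrays. As differences within an array, Atp5g1 gained 0.21 on Atp5g2 and 0.14 on Atp5g3 (exact p = 0.1 for both), without overlap. Atp5g2 minus Atp5g3 shifted by −0.06 (exact p = 0.2). The membrane and stalk subunits Atp5h, Atp5j, Atp5j2, Atp5k, Atp5l, Atp5md, Atp5mpl and Atp5pb rose by 0.35 to 0.56. Atpif1, the inhibitor of ATP synthase and not a member by symbol, differed by −0.12 and did not pass (adjusted p = 0.419).

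In 20 members with several usable probes the probes agreed in sign in all 20, with a median gap of 0.060 and a largest gap of 0.32 (Cox15). Small subunits of these complexes have processed pseudogenes, and whether their transcripts add to a probe's signal was not tested.

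RefSeq promoter sequences (GRCm38.p6) were listed for 47 of the 61 genes and were searched from 250 bases before to 50 bases after the transcription start, on both strands. The motifs were the core bound by NRF1 (GCGCATGC), the extended site of the estrogen-related receptors (TCAAGGTCA) and the ETS core bound by GABP (CCGGAAGT). NRF1 and GABP are known regulators of nuclear genes for the respiratory chain. The NRF1 core was in 8 of the 47 (17.0%), against 3.05% of 27025 genes, the ETS core in 8 (17.0%) against 4.31%, and the receptor site in 2 (4.26%) against 0.466%. The members' promoters were also richer in G and C, with a median of 56.8% against 52.0%, and its part in these shares was not tested. A palindromic stretch holds the NRF1 core on both strands in overlap and was counted once. Genes with the NRF1 core were Atp5g2, Atp5k, Atp5l, Cox6a1, Cycs, Sdhb, Uqcr11 and Uqcrc1, of which 7 rose and Cox6a1 did not pass. Of the 8 genes with the ETS core (Atp5h, Cox10, Cox14, Cox15, Cox16, Cox8a, Uqcr11 and Uqcrh) 4 rose. Of all 47 with a listed promoter 33 rose.

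The 250 bases before the start are shown for Cycs, which rose and holds the NRF1 core, and for the isoform genes of complex IV that are listed, in the direction of transcription, with capitals marking that core. Cycs lies at chr6:50566570-50566819 and Cox6a1 at chr5:115348959-115349208, both on the minus strand. Cox7a2 is at chr9:79759854-79760103 (minus), Cox7a1 at chr7:30183921-30184170 (plus), Cox8a at chr19:7217617-7217866 (minus) and Cox8b at chr7:140900447-140900696 (minus). Cox6a2 has no entry.
Cycs: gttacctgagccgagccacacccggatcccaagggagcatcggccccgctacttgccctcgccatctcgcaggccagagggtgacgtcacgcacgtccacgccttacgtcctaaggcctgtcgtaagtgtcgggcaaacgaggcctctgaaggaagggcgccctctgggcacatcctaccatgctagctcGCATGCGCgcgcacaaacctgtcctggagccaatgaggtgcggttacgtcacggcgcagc
Cox6a1: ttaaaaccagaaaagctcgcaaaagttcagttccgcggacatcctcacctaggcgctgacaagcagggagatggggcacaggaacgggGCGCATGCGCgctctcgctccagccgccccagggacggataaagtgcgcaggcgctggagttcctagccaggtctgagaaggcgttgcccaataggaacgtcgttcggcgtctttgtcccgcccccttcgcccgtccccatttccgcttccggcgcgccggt
Cox7a2: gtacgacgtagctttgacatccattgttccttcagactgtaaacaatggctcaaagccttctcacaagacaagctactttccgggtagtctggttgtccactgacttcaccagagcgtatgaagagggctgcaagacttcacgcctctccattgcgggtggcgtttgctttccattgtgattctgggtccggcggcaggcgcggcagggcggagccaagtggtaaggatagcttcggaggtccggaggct
Cox7a1: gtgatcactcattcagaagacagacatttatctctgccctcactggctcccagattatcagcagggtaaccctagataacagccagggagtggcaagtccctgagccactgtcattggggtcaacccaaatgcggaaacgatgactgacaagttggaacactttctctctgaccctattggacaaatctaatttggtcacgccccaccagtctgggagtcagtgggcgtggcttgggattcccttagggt
Cox8a: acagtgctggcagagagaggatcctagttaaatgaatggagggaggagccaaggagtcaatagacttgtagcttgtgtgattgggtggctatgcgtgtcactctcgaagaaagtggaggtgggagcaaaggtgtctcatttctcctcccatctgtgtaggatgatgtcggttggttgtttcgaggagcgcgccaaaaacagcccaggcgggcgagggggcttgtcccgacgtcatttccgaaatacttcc
Cox8b: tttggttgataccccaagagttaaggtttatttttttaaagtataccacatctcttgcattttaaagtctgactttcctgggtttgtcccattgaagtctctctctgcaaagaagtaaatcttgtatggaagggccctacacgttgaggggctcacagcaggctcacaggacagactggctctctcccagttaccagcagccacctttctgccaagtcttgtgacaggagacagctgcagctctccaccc
Cycs, with the core in capitals, rose, whereas Cox6a1 holds the core in both directions and had overlapping groups. Neither muscle isoform shown, Cox7a1 or Cox8b, has any of the 3 motifs in these bases, nor does Cox7a2, and of the ETS cores of Cox8a 1 runs across the start and 1 lies after it. A match describes these letters and is no evidence of binding in this muscle.

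Other genes of the respiratory chain were read from the same fit. Of 37 genes with complex I symbols 35 rose, with a median log2 fold change of 0.54 and a range of 0.31 to 0.81. Without Ndufa4 and its paralog Ndufa4l2, which bear such symbols but are not complex I subunits, 34 of 35 rose, with a median of 0.55. The medians of complexes III and V, which like this set hold no assembly factors here, were 0.53 and 0.46. That of complex IV was 0.31 with its 10 factors and 0.41 for its 14 subunits and isoforms alone. Differences between complexes were not tested. Of 28 assembly or further subunit genes outside the symbol rule 14 rose, with a median of 0.40. These included Ndufa4, a subunit of complex IV and also 1 of the 37 above, at 0.47 (adjusted p = 0.0239), Uqcc2, an assembly factor of complex III, at 0.50 (adjusted p = 0.0239), and Pet100, one of complex IV, at 0.53 (adjusted p = 0.0311). Surf1 and Lrpprc, which act in complex IV biogenesis, differed by 0.05 and 0.04 and did not pass, and further probes of Lrpprc gave −0.10 and −0.04. Of 8 regulators of mitochondrial biogenesis 1 rose, the nuclear receptor Esrra, by 0.38 (adjusted p = 0.0434). Ppargc1a, the coactivator PGC-1α, differed by 0.08, its relative Ppargc1b by 0.45 (adjusted p = 0.139, groups not overlapping), Gabpa by −0.14 and Tfam by 0.26, none of which passed. Nrf1 did not pass either, and its probes disagreed in sign, with −0.13 for the brightest and 0.55 for another.

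The tissue label was checked against markers. Skeletal muscle markers were well above background on every array, and 5 of 6 rose, among them Ckm by 1.50 and Mb by 1.20, both larger changes than that of any member. Their summed signal, in multiples of the array's 75th percentile, was 3849 to 4370 on exercise and 1903 to 2702 on sedentary arrays. Of 5 slow-fibre markers Tnni1 fell by 1.45, and the summed signal was 36.5 to 107 against 108 to 132. Adipocyte markers (1 of 5 rose, Lep, and the other 4 were lower without passing) summed to 128 to 438 against 278 to 382. The median log2 fold change of these adipocyte markers was −0.92. Brown adipocyte markers (1 of 3 fell, Zic1) summed to 5.95 to 9.73 against 8.73 to 10.6. None of the red blood cell (256 to 360 against 153 to 326), macrophage (34.6 to 40.2 against 34.4 to 39.8), endothelial (13.4 to 18.1 against 13.2 to 16.2) or heart markers (0.451 to 0.793 against 0.413 to 0.685) passed. None of these marker sets was at 0, although 1 brown adipocyte and 1 heart marker were not well above background on every array. The part of tissue composition in the members' changes was not tested.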

How the data were processed

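Total RNA of quadriceps was labelled with Cy3 and hybridised by the authors to Agilent SurePrint G3 Mouse GE v2 8x60K arrays (RIN 8.4 to 9.2) and read with Agilent Feature Extraction. The deposited scanner files give processed signal intensity per spot, background-subtracted by that software, and raw and local background intensity. The deposited table of the same arrays, which holds scaled processed signal, was used in log2 as an alternative.

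From these, control spots (3671 of 62976) and outlier spots were left out, spots of a probe averaged, log2 taken and the array's 75th percentile subtracted. Of 56605 probes, 34566 were named by accession through a RefSeq table. A probe was kept where at least 3 of the 6 arrays had it well above background (32726 probes), and the brightest kept probe stood for its gene. limma 3.58.1 in R 4.3.3 fitted exercise against sedentary on all 6 arrays, with no covariate, and was tested on simulated data. The methods' fold limit, a log2 change of 1, was counted beside it. The number of arrays limits the precision. Isoform pairs were compared by an exact permutation test. Named were the extremes of each complex, all isoform pairs, the electron-carrying and catalytic subunits, and every member that was lower. Further genes were named after their values were seen. The result of 1 further marker list is not reported here. The members and lists were chosen with earlier results of these data known. Scaling, background, filter, probe choice, blocks, variance model, threshold and each array in turn were varied.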

Additional observations from a re-analysis of the deposited data

How the results depend on the processing

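Under other filters, probe choices and variance models 56 or 57 members were higher (40, 44 and 24 under quantile normalization, cyclic loess and no scaling), but the counts that rose depended on the scaling, the blocks and the arrays used. For members that rose (43), and those of complexes II, III, IV and V (6, 9, 11 and 16) and the other respiratory chain genes (15 of 36 assembly genes and regulators), the counts were 4, with 1, 0, 3, 0 and 0, under quantile normalization. They were 5, with 1, 1, 3, 0 and 0, under cyclic loess, 18, with 2, 3, 7, 6 and 1, in the deposited table, and 1, with 0, 1, 0, 0 and 0, with no scaling. With the array median subtracted complex II had 2. With a log2 fold change of at least 1 all were 0, and at an unadjusted p under 0.05 complex IV had 18. Of the 25005 genes and transcripts tested, 1865 rose under quantile normalization, 1881 under cyclic loess, 1172 in the deposited table and 617 with no scaling. The fit that gave 43 members had 2868. In the deposited table the 59 tested members thus rose far more often than everything tested. Under quantile normalization, cyclic loess and no scaling they rose about as often or less. The number of members that fell, 0, became 1 under quantile normalization, cyclic loess, the deposited table, normexp, array weights and an unadjusted p under 0.05, and 3 with no scaling. The members' median of 0.42 became 0.057, 0.13, 0.26 and −0.053 under quantile normalization, cyclic loess, the deposited table and no scaling, 0.51 with the array median, 0.35 with normexp and 0.35 with the slide strip as a block. With no scaling the medians of complexes II, IV and V were −0.080, −0.16 and −0.013 and that of the other assembly genes −0.068. Cox4i1 minus Cox4i2 turned to −0.12 (quantile) and −0.10 (loess). The cause of these differences was not tested.

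Of the 43 members that rose, 11, 6 and 19 were lower under quantile normalization, cyclic loess and no scaling, and those named by rule were as follows. In that order, Atp5a1 turned to −0.17, −0.065 and −0.13, Cox7b to −0.064, −0.015 and −0.14, Cox8b to −0.077, −0.0045 and −0.054, and Uqcrh to −0.13, −0.013 and −0.068. Under quantile normalization and no scaling Atp5g2 turned to −0.084 and −0.11 and Atp5g3 to −0.014 and −0.053. Among members that had not passed, Sdha was at −0.067, −0.090 and −0.32, Atp5b at −0.24, −0.13 and −0.19 and Cox7a2 at −0.23, −0.14 and −0.27 in the same order. With no scaling Cox4i2, Cox6b2 and Cox7a2l were at −0.19, −0.30 and −0.18, and Cox7a2l was at −0.012 under cyclic loess.

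With 1 array left out, between 0 and 42 members rose and between 0 and 1 fell, with 0 to 5, 0 to 9, 0 to 11 and 0 to 16 of complexes II to V and 0 to 16 of the other genes. The count of members that rose was 0 without any array other than sedentary array 1, and so was that of everything tested. Without sedentary array 1, 3476 of everything tested rose.

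Replicate numbers share only a number: the correlations of same-numbered arrays were 0.015, 0.085 and 0.036, and 2 of 3 numbers correlated best with their own. With the replicate block 0 members rose (0 in each complex and 0 other genes), while 49 were higher with an unadjusted p under 0.05 and the lowest adjusted p of any gene was 0.0606. Over everything tested, 8591 had an unadjusted p under 0.05 with the replicate block, in either direction. With the slide strip as a block the counts that rose were likewise 0, also over everything tested. There 37 members were higher with an unadjusted p under 0.05, beside 4827 of everything tested in either direction.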
